A study of Mus musculus with 2 samples.

Results

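The 56 genes described here are those of the 14678 genes in the expression table whose symbol begins with Mmp, Timp or Adam followed by a number, or with Adamts. They fall into 17 matrix metalloproteinases (MMP), 3 tissue inhibitors of metalloproteinases (TIMP), 15 ADAM genes, 17 ADAMTS genes and 4 ADAMTS-like genes. Uterine RNA of gestation day 2.5 (G2.5), before implantation, was compared between VEGF-normal mice fed doxycycline chow (Dox+) and VEGF-repressed mice fed chow without doxycycline (Dox-). All animals were double transgenic. They carried tet operators in both copies of the VEGF promoter and a β-actin-driven transgene for the tetR-Krab repressor. This repressor is expressed universally and lowers VEGF, in part in the uterus, unless doxycycline holds it off the DNA. The Dox+ uteri thus carried the same transgenic alleles as the Dox- uteri, and the Dox+ mice stayed on the drug. The Dox- mice had also been raised on doxycycline food, which was withdrawn some weeks after birth. Uteri of both groups were taken from littermates further weeks later, so that Dox- stands for withdrawal of the drug and not for lifelong absence. Equal amounts of RNA from 3 uteri were pooled for each condition and 1 library was sequenced, so that no difference below has a replicate check and no test between the conditions was possible.

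These enzymes cut the extracellular matrix and the cell surface. MMPs are zinc proteases that degrade collagens and other matrix proteins, and TIMPs block them by binding in the catalytic site. ADAMs sit in the plasma membrane, where the catalytic ones release the outer parts of growth factors, receptors and adhesion molecules. ADAMTS enzymes are secreted and process proteoglycans and procollagens, while the ADAMTS-like proteins share their outer domains but have no protease. In the uterus the families are known for matrix remodeling around ovulation, implantation and decidualization.

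The gene counts summed to 4437506 tags for Dox+ and 4218459 for Dox-. Levels are given as copies, the tags counted for a gene in 1 library. The fold change is the ratio of the copies per clean tag, and its 95% interval in brackets is an exact Clopper-Pearson interval that covers counting error only. Tags seen once had been removed, so that a copy number of 0 does not exclude single tags. Vegfa, the repressed gene, had 247 copies in Dox+ and 125 in Dox-, 1.93-fold lower (1.55 to 2.41). Markers of uterine epithelium, stroma and smooth muscle were found in both libraries, 7 of 7, 8 of 8 and 7 of 7 listed, and none of 8 listed genes of spermatozoa and testis was among the genes analysed. In pooled whole uteri, fewer cells of a type and less RNA per cell cannot be told apart.

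All 56 genes together held 12133 copies in Dox+ and 10139 in Dox-, 0.273% and 0.240% of the counted tags. Most of them were rare. The median gene of the families had 47.5 copies in Dox+ and 34.5 in Dox-, against 79 and 77 over the whole table. Of the 56 genes, 18 reached a combined copy number of 200, 32 stayed below it with more than 3 copies in a library, and 6 had 3 copies or fewer in both (Mmp12, Mmp27, Mmp28, Adam32, Adamts6 and Adamts12). In all, 43 genes had more than 3 copies in both libraries, 1 had no tag in Dox+ and 5 had none in Dox-. Folds of the rare genes carry wide intervals.

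Genes were called where both libraries together held 200 copies or more and the fold reached 1.5. Mmp15, Adam12, Adamts1, Adamts2 and Adamts4 were higher in Dox-, and Mmp2, Timp3 and Adamts7 were lower. These 8 of 18 genes (44.4%) compare with 29.9% of the 6547 genes with enough copies in the whole table. By direction, 5 of 18 (27.8%) were called higher against 15.2% of all genes, and 3 of 18 (16.7%) lower against 14.7%. The intervals of 6 lay entirely beyond 1.5. Those were 3 higher genes (Mmp15, Adam12 and Adamts1), where 7.21% of all genes with enough copies met that rule, and 3 lower ones (Mmp2, Timp3 and Adamts7), where 7.87% did. The median log2 ratio, Dox- over Dox+, was 0.0495 for the 18 genes and 0.0345 for all genes with enough copies.

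**Figure D1:**
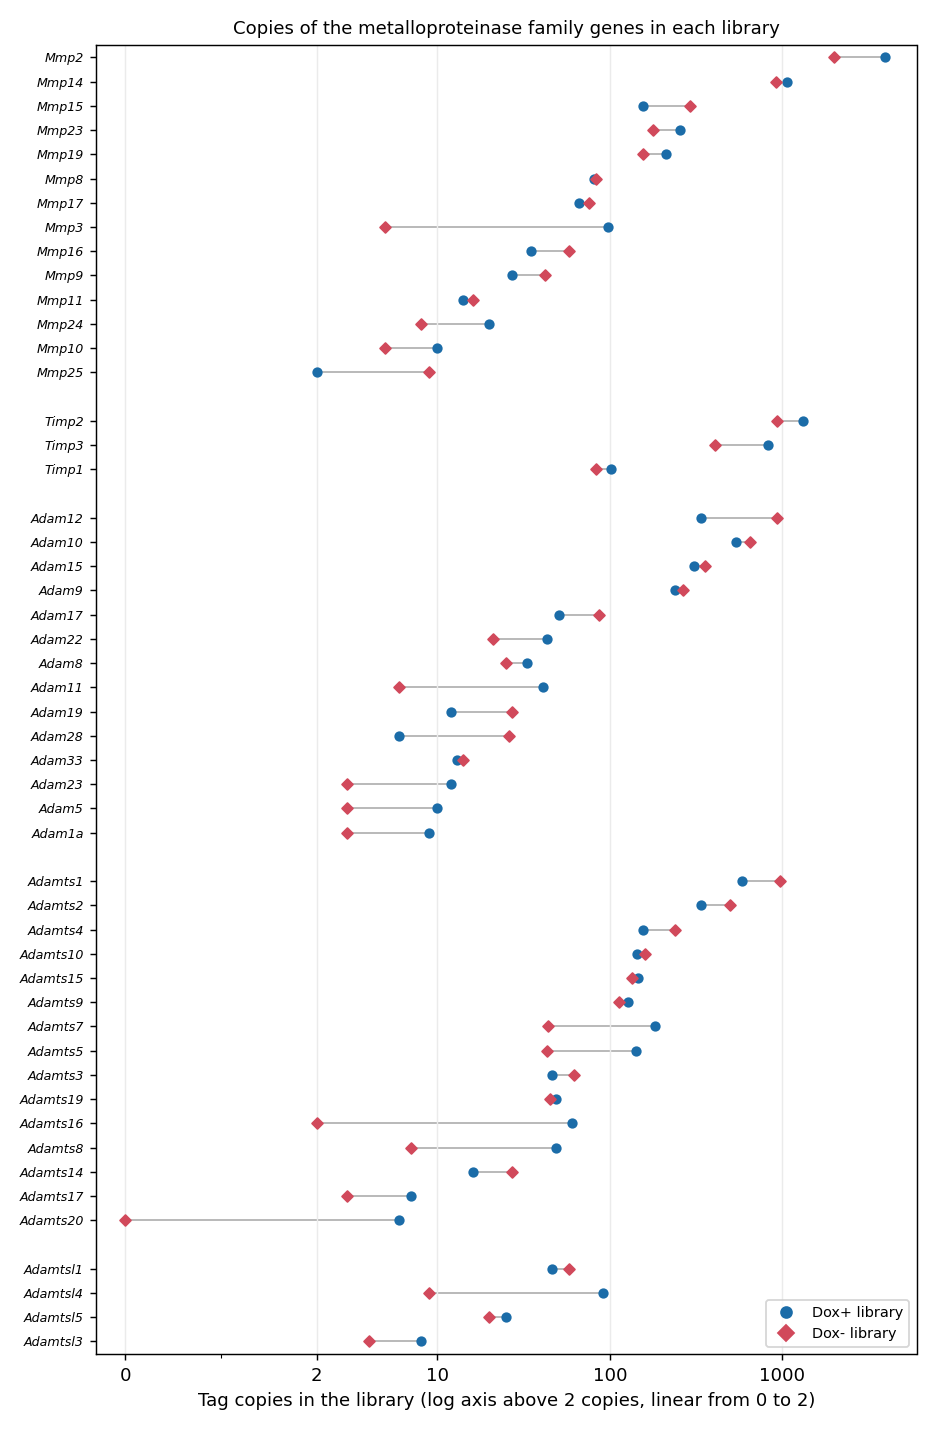
Tag copies of the 50 genes with more than 3 copies in a library, by family and in order of combined copies, in the Dox+ library (circles) and the Dox- library (diamonds), on an axis that is logarithmic above 2 copies. Mmp2 has the most copies in both libraries, and Adam12 stands to the right in Dox-. Among the genes with tags in both libraries, the longest gaps to the left are those of Mmp3, Adamts16 and Adamtsl4.

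Among the MMPs, the gelatinases digest denatured collagen and the type IV collagen of basement membranes. Mmp2 (gelatinase A, chromosome 8, 95351227 to 95377316 on NCBIM37) had 3962 copies in Dox+ and 2006 in Dox-, 1.93-fold lower (1.83 to 2.04). It alone held 32.7% of the copies of the 56 genes in Dox+ and 19.8% in Dox-. Per length it was also the first of them, with 1304 copies per kb of transcript in Dox+ and 660 in Dox-, followed in both libraries by Mmp14 with 409 and 353 copies per kb. Values per length are given only because the library type, tag profiling or fragmented mRNA, was not resolved. For tag profiling the copies themselves are the measure of level. Mmp9 (gelatinase B) had 27 and 42 copies, a fold of 1.59 higher in Dox- with an interval of 0.960 to 2.69 that includes 1.

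The membrane-type MMPs are anchored at the cell surface. Mmp14, which activates the proenzyme of Mmp2, had 1063 copies in Dox+ and 916 in Dox-, 1.13-fold lower (1.04 to 1.24) and not called. Mmp15 (chromosome 8, 97876168 to 97898193), of the same group, went the other way, with 155 copies in Dox+ and 292 in Dox-, 1.93-fold higher (1.58 to 2.36). Mmp16 had 35 and 58 copies, Mmp17 66 and 76, Mmp24 20 and 8, and Mmp25 2 and 9. The 6 membrane-type genes together had 1341 and 1359 copies, so that their sum was nearly the same in the libraries while Mmp14 and Mmp15 differed in direction.

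Of the stromelysins, Mmp3 and Mmp10 cleave proteoglycans, laminin and fibronectin and activate other proMMPs. Mmp3 (stromelysin-1, chromosome 9, 7445822 to 7455972) had 98 copies in Dox+ and 5 in Dox-, 19.1-fold lower (7.93 to 60.2), the largest fall among the MMPs, though its combined copy number of 103 was below 200. Mmp10 (stromelysin-2) had 10 and 5 copies and Mmp11 (stromelysin-3) 14 and 16, and both of those intervals include 1. Chchd10, which overlaps Mmp11 on the other strand, had 1033 and 988 copies. The neutrophil collagenase Mmp8 had 81 and 83 copies.

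Mmp3, Mmp8, Mmp10, Mmp12 and Mmp27 lie on the plus strand in one cluster on chromosome 9, with 2.91 kb between Mmp8 and Mmp27, 48.2 kb between Mmp10 and Mmp8 and 76.3 kb between Mmp12 and Mmp3. Mmp3 alone of the 5 had an interval beyond 1.5-fold. Mmp8 had nearly equal copies, Mmp12 had 3 and 0 copies and Mmp27 0 and 2. The promoters of Mmp3 and Mmp10 are shown because the pair are close relatives 46.4 kb apart. Both had fewer copies in Dox-, and with 10 and 5 copies the ratio of Mmp10 is uncertain (1.95-fold lower, 0.608 to 7.28). The 120 bases before the start of each gene are from RefSeq on GRCm38.p6, and capitals mark TGANTCA, the AP-1 site, and TATAAA, the TATA box. The AP-1 pattern reads alike on both strands, and no motif match overlapped one of another motif in the sequences shown here.
Mmp3, chr9:7445702-7445821, plus strand: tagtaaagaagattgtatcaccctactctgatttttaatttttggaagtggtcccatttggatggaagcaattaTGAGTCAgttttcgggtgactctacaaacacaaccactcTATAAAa
Mmp10, chr9:7502222-7502341, plus strand: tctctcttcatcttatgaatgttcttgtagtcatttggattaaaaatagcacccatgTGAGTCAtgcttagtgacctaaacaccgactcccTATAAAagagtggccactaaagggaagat
Both carry TGAGTCA and TATAAA in the same order. The AP-1 letters begin 46 bases before the start of Mmp3 and 63 before that of Mmp10, and the TATA letters 7 and 29 bases before. TGANTCA was found within 250 bases before the start in 4 of 38 windows of the families (10.5%), those of Mmp3, Mmp10, Mmp12 and Adam19, against 6.75% of the 32851 windows of all genes. TATAAA, searched on both strands, was found in 3 of the 38 (7.89%), those of Mmp3, Mmp10 and Adamts1, against 12.4%. Entries were found for 34 of the 56 genes, some with more than 1 start. These matches describe letters, not bound sites.

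Of the other secreted MMPs, Mmp19 had 211 and 155 copies and Mmp23 254 and 177, 1.33-fold (1.07 to 1.65) and 1.4-fold (1.15 to 1.71) lower in Dox- and not called. 1110012D08Rik, which overlaps Mmp19 on the other strand, had 170 and 63 copies. Mmp28 had 2 copies in each library. Over all 17 MMPs the copies summed to 6003 in Dox+ and 3852 in Dox-, 1.52-fold lower (1.46 to 1.59). Without Mmp2 the sum was 2041 and 1846, 1.08-fold lower (1.01 to 1.15), so that Mmp2 made up most of the family's difference.

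The neutrophil marker genes S100a8, S100a9, Mpo and Csf3r, 4 of 7 listed, summed to 7.35 TPM in Dox+ and 38.5 in Dox-. S100a8 had 24 and 98 copies and S100a9 9 and 71. Mmp8, Mmp9 and Mmp25, which neutrophils are known to store or display, are given above beside these values, and the part of neutrophils in them was not tested. Markers of leukocytes at large, 7 of 7 listed, summed to 58.8 and 82.5 TPM.

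TIMPs are small secreted proteins, and Timp3 binds to the matrix and also blocks several ADAM and ADAMTS enzymes. Timp3 (chromosome 10, 85763117 to 85812251) had 823 copies in Dox+ and 408 in Dox-, 1.97-fold lower (1.75 to 2.22). Timp2, which takes part in the activation of Mmp2 by Mmp14, had 1316 and 930 copies, 1.38-fold lower (1.27 to 1.5), below the threshold although its interval excluded 1. Timp1 had 101 and 83 copies, 1.19-fold lower with an interval of 0.880 to 1.61. Of the 3 inhibitors, Timp2 and Timp3 had enough copies to be called. Timp3 alone was called, where 29.9% of all genes with enough copies were. Syn3, which overlaps Timp3 on the other strand, had 4 and 3 copies.

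The start region of Timp3 is printed since it is the called inhibitor, and that of Mmp15 since it is the called membrane-type enzyme. Both are the 120 bases before the start, from RefSeq on GRCm38.p6, and capitals mark GGGCGG, the GC box, on either strand.
Timp3, chr10:86300292-86300411, plus strand: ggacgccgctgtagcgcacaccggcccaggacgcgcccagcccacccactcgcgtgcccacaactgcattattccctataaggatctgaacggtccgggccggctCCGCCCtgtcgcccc
Mmp15, chr8:95352176-95352295, plus strand: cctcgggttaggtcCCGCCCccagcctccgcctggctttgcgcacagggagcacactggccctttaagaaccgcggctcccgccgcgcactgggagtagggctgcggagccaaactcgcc
Each shows 1 GC box, read as CCGCCC on the strand printed, 15 and 106 bases before the start, and neither shows TATAAA. The GC box on either strand was found in 22 of the 38 windows of the families (57.9%) and in 32.7% of all windows.

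The number of MMP tags per TIMP tag was 2.68 (2.55 to 2.81) in Dox+ and 2.71 (2.55 to 2.88) in Dox-. Without Mmp2 it was 0.911 (0.858 to 0.968) in Dox+ and 1.30 (1.21 to 1.39) in Dox-. This second ratio leaves out the MMP called lower while Timp3, the TIMP called lower, stays in. Its rise thus follows from the gene left out and does not show a shift between the families. These are ratios of summed tags with no length correction, and they say nothing of enzyme activity.

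**Figure D2:**
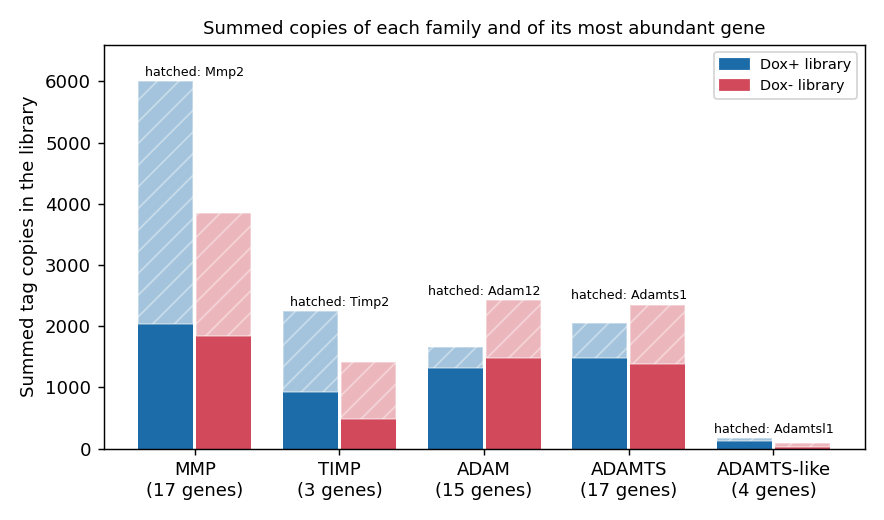
Summed tag copies of the genes of each family in the Dox+ and the Dox- library, with the part of the most abundant gene hatched. MMP and TIMP sums are lower in Dox-, ADAM and ADAMTS sums are higher, and without Adamts1 the ADAMTS sum is slightly lower in Dox-.

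Among the ADAMs with a catalytic zinc site, Adam12 (chromosome 7, 141074882 to 141423829), a protease that cleaves IGF binding proteins and HB-EGF and is known from placenta and developing muscle, had 339 copies in Dox+ and 936 in Dox-. It was 2.83-fold higher (2.5 to 3.21), the largest rise of the 18 genes with enough copies. Adam10, the main sheddase of Notch and cadherins, had 541 and 647 copies, 1.22-fold higher (1.09 to 1.38). Adam15 had 309 and 358 copies and Adam9 239 and 267, with ratios of 1.19 and 1.14. None of those 3 was called.

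Adam17, the enzyme that releases TNF and several EGF-family ligands, had 51 copies in Dox+ and 87 in Dox-, 1.75-fold higher (1.22 to 2.52), at a combined number below 200. Its gene overlaps Iah1 on the other strand, which had 440 and 163 copies. Adam28 had 6 and 26 copies, 4.44-fold higher (1.79 to 13.2), and was the only gene of the families under 200 combined copies whose interval lay entirely above 1.5. Adam19 had 12 and 27 copies, Adam8 33 and 25, and Adam33 13 and 14. Of the 9 catalytic ADAMs, 4 had enough copies to be called. Adam12 alone of those 4 was called, where 29.9% of all genes with enough copies were.

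The ADAMs without a catalytic site, which act in adhesion and are known mainly from the nervous system, showed fewer copies in Dox-. Adam11 had 41 copies in Dox+ and 6 in Dox-, 6.67-fold lower (2.82 to 19.2). Adam22 had 43 and 21 copies and Adam23 12 and 3. Together these 3 genes had 96 and 30 copies, 3.12-fold lower (2.06 to 4.88). Of 21 listed ADAMs known mainly from testis 3 were analysed. Adam1a had 9 and 3 copies, Adam5 10 and 3 and Adam32 2 and 0. Adam1a overlaps Mapkapk5 on the same strand, which had 315 and 194 copies, so that its few tags are uncertain. The 15 ADAM genes summed to 1660 copies in Dox+ and 2423 in Dox-, 1.5-fold higher (1.4 to 1.59), and without Adam12 to 1321 and 1487, 1.15-fold higher (1.07 to 1.24).

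The 7 proteoglycan-cleaving ADAMTS genes, which cut versican and aggrecan, divided by gene. Adamts1 (chromosome 16, 85794072 to 85803358), a progesterone-responsive enzyme needed for ovulation, had 587 copies in Dox+ and 975 in Dox-, 1.70-fold higher (1.53 to 1.89). Adamts4 had 155 and 239 copies, 1.58-fold higher (1.28 to 1.95). Adamts9 had 128 and 113 copies and Adamts15 146 and 135, both within counting error.

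Adamts5 and Adamts8 of the same group were lower in Dox-. Adamts5 had 141 and 43 copies, 3.20-fold lower (2.26 to 4.62), and Adamts8 had 49 and 7, 6.83-fold lower (3.08 to 17.9), both below a combined number of 200. Adamts20 had 6 and 0 copies. Adamts1 and Adamts5 are neighbours on the minus strand of chromosome 16 with a gap of 55.1 kb, and Adamts8 and Adamts15 lie 20.1 kb apart on chromosome 9. In the first pair Adamts1 was called higher while the interval of Adamts5 lay beyond 1.5-fold lower, and in the second pair Adamts8 alone lay beyond it. The group as a whole had 1212 copies in Dox+ and 1512 in Dox-, 1.28-fold higher (1.18 to 1.38).

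Adamts2, Adamts3 and Adamts14 remove the amino-terminal propeptide of fibrillar procollagens. Adamts2 (chromosome 11, 50415586 to 50621075) had 338 copies in Dox+ and 498 in Dox-, 1.51-fold higher (1.31 to 1.74), and with the TMM or median-of-ratios scaling it was 1.48-fold or 1.47-fold higher and no longer called. Adamts3 had 46 and 62 copies and Adamts14 16 and 27. The 3 genes together had 400 and 587 copies, 1.5-fold higher (1.32 to 1.71). Bmp1, whose product removes the carboxyl-terminal propeptide of the same procollagens, had 606 copies in Dox+ and 363 in Dox-, 1.63-fold lower (1.43 to 1.86), and Pcolce, the enhancer of that step, 415 and 303.

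Among the other ADAMTS genes, Adamts7 (chromosome 9, 90057816 to 90102909), which cleaves the cartilage matrix protein COMP, had 183 copies in Dox+ and 44 in Dox-, 4.06-fold lower (2.91 to 5.78). Tbc1d2b, which overlaps it on the other strand, had 153 and 158 copies. Adamts16 (chromosome 13, 70866680 to 70980689) had 60 copies in Dox+ and 2 in Dox-, 29.3-fold lower with a wide interval of 7.76 to 247. Adamts10, which acts on fibrillin microfibrils, had 144 and 159 copies, Adamts19 49 and 45 and Adamts17 7 and 3. Over all 17 ADAMTS genes the copies summed to 2060 and 2352, 1.17-fold higher (1.10 to 1.24), but without Adamts1 to 1473 and 1377, 1.04-fold lower with an interval of 0.970 to 1.12.

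The ADAMTS-like genes were rare, and none reached 200 combined copies. Adamtsl4, a fibrillin-binding matrix protein, had 91 copies in Dox+ and 9 in Dox-, 9.87-fold lower (4.98 to 22.3). Adamtsl1 had 46 and 58 copies, Adamtsl5 25 and 20 and Adamtsl3 8 and 4.

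For the ADAMTS families the start regions of the called genes Adamts1 and Adamts2 and of Adamtsl4 are printed, since the first pair were higher and the last was lower in Dox-. They are again the 120 bases before the start from RefSeq on GRCm38.p6, with GGGCGG on either strand and TATAAA in capitals.
Adamts1, chr16:85803114-85803233, minus strand: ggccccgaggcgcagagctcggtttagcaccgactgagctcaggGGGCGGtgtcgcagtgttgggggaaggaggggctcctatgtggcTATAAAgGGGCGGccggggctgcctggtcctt
Adamts2, chr11:50601965-50602084, plus strand: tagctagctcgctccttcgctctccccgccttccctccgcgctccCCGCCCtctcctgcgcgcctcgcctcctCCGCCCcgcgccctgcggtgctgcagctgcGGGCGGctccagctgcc
Adamtsl4, chr3:95687918-95688037, minus strand: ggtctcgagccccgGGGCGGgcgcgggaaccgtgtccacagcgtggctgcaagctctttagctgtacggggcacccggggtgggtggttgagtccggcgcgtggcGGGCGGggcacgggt
All 3 hold GC boxes, and Adamts1 also holds TATAAA, 32 bases before its start. Promoters of Mmp2, Adam12, Adamts4, Adamts5, Adamts7, Adamts8 and Adamts16 are not shown.

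**Figure D3:**
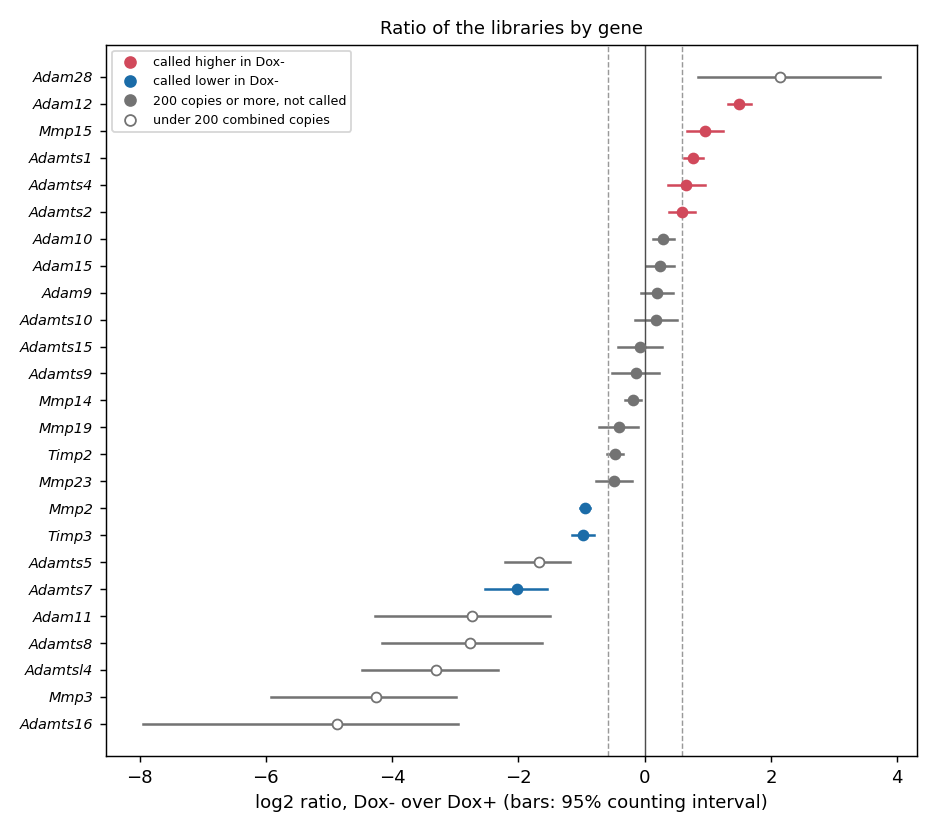
The log2 ratio of Dox- over Dox+ with its 95% counting interval for the 18 genes with at least 200 combined copies (filled) and the 7 rarer genes whose interval lies beyond 1.5-fold (open), with dashed lines at 1.5-fold. The called genes run from Adam12 at 1.5 to Adamts7 at -2.02, and 6 of the 7 rarer genes lie on the lower side.

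Below 200 combined copies, 7 genes of the families had an interval entirely beyond 1.5-fold. Adam28 was higher, and Mmp3, Adam11, Adamts5, Adamts8, Adamts16 and Adamtsl4 were lower in Dox-. The 6 lower genes are 18.8% of the 32 rare genes with more than 3 copies in a library, against 7.28% of 7180 such genes in the whole table, and the 1 higher gene is 3.12% against 6.31%. The intervals of the other 25 rare genes did not exclude folds below 1.5.

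Because these enzymes are made by different cells, the marker genes are given beside them. Over all genes with enough copies, 15.2% were called higher and 14.7% lower. The markers of smooth muscle, epithelium and stroma all had enough copies. The 7 smooth muscle markers summed to 6500 TPM in Dox+ and 4480 in Dox-, with 3 called lower. The 7 endothelial markers summed to 197 and 138 TPM, and without Cdh5 to 122 and 101 TPM. Only 3 of them had enough copies. Cdh5 and Tie1 were called lower, while Pecam1 was level with 243 and 253 copies. Of the rarer ones, Tek had 87 and 51 copies and Emcn 108 and 64, while Eng had 92 and 104 and Kdr 10 and 17. The 7 epithelial markers summed to 845 and 1160 TPM, with Krt7 and Epcam called higher and Cldn4 lower. The 8 stromal markers summed to 5870 and 7250 TPM, but without Col1a1 the other 7 summed to 2020 and 1490 TPM, and the list's median log2 ratio was -0.21. Of these, Hoxa10, Hoxa11 and Vim were called lower and Lum higher. No listed marker of these 4 lists was at 0. The 4 mesothelial markers summed to 71.2 and 31 TPM, and Wt1, the 1 with enough copies, was called lower. Of 5 listed adipocyte markers 4 were analysed and summed to 82.7 and 55.3 TPM, with Adipoq called lower of the 2 with enough copies. Of 5 listed markers of oviduct and oocyte 3 were analysed and summed to 4.68 and 4.96 TPM, with Ovgp1 at 25 and 2 copies and Foxj1 at 3 and 25. The part of these differences in the values of Mmp2, Timp3, Mmp15, Adam12 and the ADAMTS genes was not tested.

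The table's own annotation shows what the families share. It assigned transition metal ion binding to 46 of the 56 genes and endopeptidase activity to 44. Of the 14 genes in the table assigned to collagen metabolic process, 13 belong to these families, and Mmp2 was called lower and Adamts2 higher among them. The term for the ovulation cycle held Adamts1, Mmp2, Mmp14 and Mmp19. The term for response to estrogen held Mmp15, Mmp9, Mmp3 and Mmp10, of which Mmp15 alone had enough copies.

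Genes that act around these enzymes were followed with 5 lists. Among 23 listed activators and inhibitors, 21 were analysed, 10 had enough copies, 1 was called higher and 2 lower (30% in all, against 29.9% of all genes), with a median log2 ratio of 0.042. A2m, a broad protease inhibitor that traps MMPs, had 342 copies in Dox+ and 1579 in Dox-, 4.73-fold higher (4.20 to 5.33). Pcsk5, a proprotein convertase that activates several of these proenzymes, had 450 and 108 copies, 4.07-fold lower (3.29 to 5.07). Reck, a membrane-anchored inhibitor of MMPs, had 240 and 124 copies, 1.89-fold lower (1.51 to 2.37).

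The convertase Furin was level with 246 and 242 copies, and so was the plasminogen activator Plat with 1300 and 1208. The proteoglycan Sdc1 had 1135 and 1578 copies and was not called. Of the rarer members, Cma1, the mast cell chymase that can activate proMMPs, had 98 and 8 copies, 12.0-fold lower (5.84 to 28.5), and Spock2 had 153 and 27, 5.53-fold lower (3.66 to 8.67). Spock3 had 3 copies in Dox+ and 35 in Dox-, 11.9-fold higher (3.77 to 60.7).

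Among 12 partners of Adam10 and Adam17, 5 had enough copies and 2 (40%) were called, both higher, against 29.9% of all genes called in either direction. Rhbdf1 (iRhom1), which carries Adam17 to the cell surface, had 81 copies in Dox+ and 168 in Dox-, 2.12-fold higher (1.62 to 2.81). Mad2l1, better known for the spindle checkpoint, had 129 and 341 copies, 2.71-fold higher (2.21 to 3.34). Pdia6 had 2097 and 2606 copies, Dlg1 439 and 343 and Tspan14 248 and 282, none of them called. Tspan5 had 121 and 53 copies, 2.23-fold lower (1.60 to 3.14), at a combined number below 200.

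Of 25 listed proteins that are shed from the cell surface, 23 were analysed and 9 had enough copies, of which 2 were called higher and 3 lower, 55.6% against 29.9% of all genes. Tnfrsf1b, a TNF receptor, had 92 copies in Dox+ and 207 in Dox-, 2.31-fold higher (1.79 to 2.98), and App 975 and 1453, 1.53-fold higher (1.41 to 1.66), though 1.49-fold and not called with the median-of-ratios scaling. Jam3, Cdh5 and Cd44, which act in adhesion, were lower, Jam3 with 245 and 103 copies, Cdh5 with 446 and 216 and Cd44 with 1078 and 633. Cdh1 had 703 and 909 copies and was not called. The ligands that Adam17 releases were rare. Areg had 31 copies in Dox+ and 0 in Dox-, 10.1-fold lower with the count of 0 set to 3 copies, and the limit of its counting interval was 7.73-fold. Nrg1 had 0 and 35, 11.9-fold higher by the same floor with a limit of 9.21-fold, and Hbegf had 40 and 44.

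Of 13 listed proteoglycans and partners of ADAMTS cleavage 12 were analysed and 5 had enough copies, with a median of -0.090. Vcan (versican), the main substrate of Adamts1 in reproductive tissue, had 229 copies in Dox+ and 210 in Dox-. Bgn had 950 and 601 copies, 1.54-fold lower (1.39 to 1.71), and was the 1 gene called of those 5 (20%, against 29.9% of all genes). Dcn had 1146 and 1407 copies and Fbln1 364 and 320. Hapln1, a link protein of hyaluronan and proteoglycans, had 29 and 0 copies, 9.44-fold lower by the same floor, with an interval limit of 7.2-fold.

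The astacin and pappalysin list had 4 of its 10 genes analysed. Bmp1 and Pcolce, given above, had enough copies, while Pappa had 37 and 32 copies and Pcolce2 10 and 39. Over all 5 lists, 31 genes had enough copies, of which 5 were called higher (16.1% against 15.2% of all genes) and 7 lower (22.6% against 14.7%), with a median log2 ratio of 0.0345, the same as that of all genes.

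**Figure D4:**
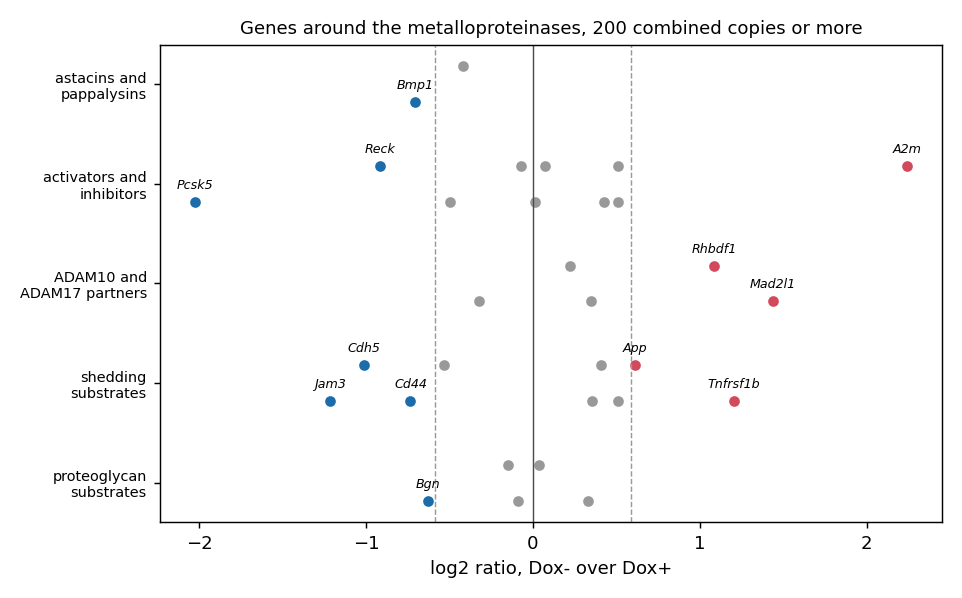
The log2 ratio of Dox- over Dox+ for the genes with at least 200 combined copies in 5 lists around the metalloproteinases, 1 point a gene, with called genes named and dashed lines at 1.5-fold. A2m lies farthest to the right, Pcsk5 farthest to the left, and each list but those of astacins, ADAM partners and proteoglycans has calls on both sides.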

How the data were processed

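DGE tag profiles were made from RNA pooled over 3 uteri, with 1 library for Dox+ and 1 for Dox-. Reads of poor quality, adaptor reads and tags seen once had been taken out by the authors, who aligned clean tags to mouse mm9 reference transcripts and counted unambiguous tags per gene. The submitters' notes name CASAVA, and the aligner and enzyme are not given in the sources used here. The labels describe fragmented mRNA, a difference that was not resolved. The deposited counts are copy numbers without normalization. The deposited TPM values are the authors' copies scaled to the clean tags of each library, without length correction and with 0.01 at 0. The authors' ratios, P-values and FDR were not used.

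Library sizes were recovered from counts and TPM. Genes with at least 200 combined copies and a fold of at least 1.5 were called, with exact Clopper-Pearson intervals. With 1 library a condition there is no test, and p-values are not given. A count of 0 was set to 3 copies for folds. Counts of 1 to 3 were kept with their intervals, in place of the planned floor, and pairs of counts at or under 3 got no fold. Genes were named if called, if among the 3 with the most copies of their class or list, or if their interval lay beyond 1.5 below 200 copies. The overlapping genes, markers, cluster neighbours and some lower-copy genes were added after their values were seen. The family members and lists were chosen with earlier results of these data known. Positions and transcript lengths (longest coding transcript) are from GENCODE on NCBIM37, the same assembly as mm9, and promoters from RefSeq on GRCm38.p6. The alternatives were other filters, scalings (TMM of edgeR, median of ratios, counted tags), thresholds, a pseudocount and the Audic-Claverie test. The genes of the other lists and the marker sums without their most abundant gene were recomputed after seeing the data. The methods were tested on simulated data that held counting error only, so that the test does not cover the spread between animals or pools. Python 3.11.15, numpy 2.4.6, scipy 1.17.1, pandas 2.3.3, matplotlib 3.10.9, R 4.3.3 and edgeR 4.0.16 were used. Protein sequences were not used here.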

Additional observations from a re-analysis of the deposited data

How the results depend on the processing

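No paired analysis was possible because each condition has 1 library. The genes called, 5 higher and 3 lower in Dox-, depended most on the filter on copies. From 100 combined copies 6 were called lower, from 20 there were 11 higher and 11 lower, and without a filter 12 higher and 18 lower. Shares of all genes are not given for these filters or for the fold of 2 below. Those counts show only how the calls move with the rule, and they are not results about the families. At a fold of at least 2 there was 1 higher and 1 lower, Adam12 and Adamts7, and 3 of the 5 higher genes kept an interval beyond 1.5. The scalings, a pseudocount of 1 and the study's thresholds with the Audic-Claverie test left both counts within 1.5 times, though Adamts2 fell below the threshold with TMM and median-of-ratios scaling. The sum of a family depended on its most abundant gene, with a smaller difference without it for MMP and ADAM, a larger one for TIMP and ADAMTS-like genes and a turned sign for ADAMTS. Without it the log2 ratio was -0.11 in place of -0.61 for MMP, -0.88 in place of -0.62 for TIMP, 0.20 in place of 0.58 for ADAM, -0.063 in place of 0.23 for ADAMTS and -1.88 in place of -0.87 for ADAMTS-like genes. Under 3 scalings and a pseudocount of 1, the 200 values of the 50 family genes with more than 3 copies in a library stayed within their counting intervals, as did 276 values of 69 such genes of the other lists and Vegfa, an alternative added after seeing the data. App fell below the threshold with median-of-ratios scaling. The marker genes were not recomputed by scaling. With 1 library a condition the spread between pools is unknown, leaving out a library was not possible, and at 34.5 copies, the median gene of the families in Dox-, the counts cannot show small changes.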
